A study of Mus musculus with 12 samples.

Results

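The comparison described here sets mouse mesenchymal stem cells without Dicer1 against the same kind of cells with intact Dicer1, all transfected with a control siRNA, gene family by gene family and pathway by pathway. It uses 6 of the 12 libraries of the study, 3 per genotype, and its members are the 11801 of 21881 genes of the deposited table that had at least 1 FPKM (fragments per kilobase of transcript, relative to the mapped fragments of the library) in at least 3 of the 12 libraries. Mesenchymal stem cells are fibroblast-like cells of the bone marrow that can form bone, cartilage and fat. The cells came from C57BL/6 mice and had been immortalized, and they were grown as clonal lines in Alpha-MEM, antibiotics and 10% fetal bovine serum. The Dicer-intact group (WT_siCtrl) had the genotype Dicer f/f, that is, Dicer1 alleles flanked by loxP sites but not deleted, and the Dicer-null group (KO_siCtrl) had the genotype Dicer -/-. Both groups received the same nontargeting siRNA at 20 nM with HiPerfect reagent and were harvested after 48 h. The other 6 libraries of the study were Dicer -/- cells given a let-7g duplex or an siRNA against Nr6a1. They enter the filter on low values and the estimate of spread in the fit, and some of their values are given below as further Dicer-null levels. Such ranges pool both duplexes, whose levels can differ: the mean FPKM of Igf2bp2 was 33.7 with let-7g and 131 with the Nr6a1 siRNA. Because the lines are clonal and the sources used here do not give the number of clones, genotype and clone cannot be told apart. The labels do not say whether the 3 libraries of a group came from separate cultures. Each p-value of the fit thus measures only the spread between libraries of the same group, estimated over all 12 libraries.

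Dicer is the cytoplasmic nuclease that cuts hairpin precursors into mature microRNAs. A mature microRNA is loaded into an Argonaute protein and pairs, mainly through bases 2 to 8 (the seed), with sites in the 3′ untranslated region (UTR) of messenger RNAs, which are then translated less and decay faster. Cells without Dicer lack nearly all canonical microRNAs, so transcripts that carry seed matches are released from this repression while other transcripts change indirectly. In fibroblasts and marrow stromal cells the let-7, miR-15/16, miR-17, miR-26, miR-29 and miR-24 families are among the well known ones.

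The mature sequences of these families are shown because the results below on seed matches turn on them. They are from RefSeq (build GRCm38.p6), written 5′ to 3′ with the seed in capitals, and the sequence of each family's member was found on chromosome 13 (let-7a), 3 (miR-16), 14 (miR-17), 9 (miR-26a), 6 (miR-29a) and 8 (miR-24).
let-7a: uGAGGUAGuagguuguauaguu
miR-16: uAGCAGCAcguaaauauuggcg
miR-17: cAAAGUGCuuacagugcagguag
miR-26a: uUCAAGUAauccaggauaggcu
miR-29a: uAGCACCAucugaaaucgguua
miR-24: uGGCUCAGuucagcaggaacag

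An 8mer match is the reverse complement of the seed followed by an A. Matches on a single chromosome were left out first, so a gene with a larger rise may be missing. The following 8mer matches were then chosen from the called genes with the largest rises in each family, among those that recur in the results. That their genes rose was therefore fixed by the choice. Several of these UTRs also hold 8mers of other families, such as miR-125 in that of Bmf and let-7 in that of Ntn1. Each match lies in the longest annotated 3′ UTR of its gene (GENCODE M21, build GRCm38). It is written with 14 bases before it and 8 after, 5′ to 3′ on the gene's strand, and the 8mer in capitals. They are matches of letters and were not tested as functional sites.
Igf2bp2, let-7, chr16:22059473-22059480 (minus strand), base 1313 of 1784: cacacaaataaaagCTACCTCAggtgtttt
Tfpi, miR-15/16, chr2:84440407-84440414 (minus strand), base 2789 of 3063: agggttaaggtactTGCTGCTAagtcttcc
Dusp2, miR-17, chr2:127338307-127338314 (plus strand), base 512 of 581: gggcgttggaaacaGCACTTTAtatttata
Ntn1, miR-17, chr11:68211404-68211411 (minus strand), base 1595 of 3642: cctcttggtgccagGCACTTTAcccatatg
Ccnd2, miR-26, chr6:127128925-127128932 (minus strand), base 1403 of 5173: agttgtattcattgTACTTGAAgacccccc
Rhou, miR-26, chr8:123663827-123663834 (plus strand), base 2511 of 2568: tggacaggatcttgTACTTGAAacatacta
Bmf, miR-29, chr2:118531356-118531363 (minus strand), base 1195 of 3801: gtaaggaaagacatTGGTGCTAtaatgaag
Plau, miR-29, chr14:20839121-20839128 (plus strand), base 314 of 1288: accagaagcgacccTGGTGCTAtgtgcaga

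The 6 libraries were of similar depth. Read totals are not known, but relative depth, set to 1 for the shallowest, was 1.11 to 1.29 in the Dicer-intact and 1 to 1.31 in the Dicer-null libraries, and 11118 to 11465 genes per library had at least 1 FPKM. At the edge of the filter, the third highest of a gene's 12 values was 1 to 1.1 FPKM for 71 genes just inside and 0.901 to 0.995 for 104 just outside. In every group the library numbered 0 stood apart in 29 genes, 16 of them higher and 13 lower by at least 1 log2 unit, among them Gapdh, a glycolytic enzyme (FPKM 555, 85.6 and 113 in the Dicer-intact and 934, 148 and 202 in the Dicer-null libraries). Gapdh was not called in the reported fit (0.79, limma adjusted p 0.533) but was with the replicate number as a block (0.79, adjusted p 0.00017). Fold changes are given as log2 differences, Dicer-null minus Dicer-intact, on the log2(FPKM + 1) scale, ± the standard error of the limma fit, and a gene was called at a Benjamini-Hochberg adjusted p under 0.05. By that rule 6413 genes, 54.3% of those tested, were called: 3439 (29.1%) were higher and 2974 (25.2%) lower in the Dicer-null libraries. A change of at least 1 log2 unit was called for 1459 genes (12.4%), 640 higher (5.42%) and 819 lower (6.94%). With most of the table called, a list of genes is described below by its counts beside these shares and by its median beside 0.04, the median of all genes tested. Over the 62 lists used, with each gene counted once, 1224 of 1961 tested members were called. For 1179 of these called members the 3 libraries of the 2 groups did not overlap. Groups did not overlap for 57.2% of all genes tested, called or not. That share has another base than the 1179, which were counted among called genes only, so the 2 figures do not show an excess in the lists.

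**Figure D1:**
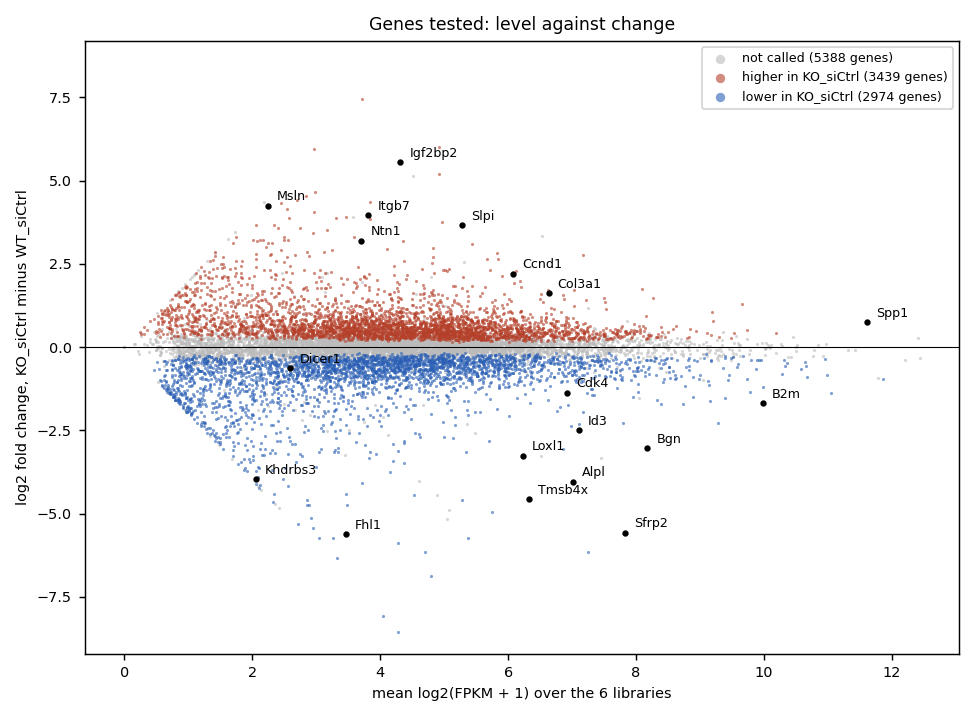
Mean level of each tested gene over the 6 libraries (x axis, log2(FPKM + 1)) against its log2 fold change, Dicer-null minus Dicer-intact (y axis), with the 3439 genes called higher in red, the 2974 called lower in blue and the rest in grey. Named genes of the text are marked in black, and changes of several log2 units are seen at low levels (Khdrbs3) and at high ones (Sfrp2, Bgn).

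**Figure D2:**
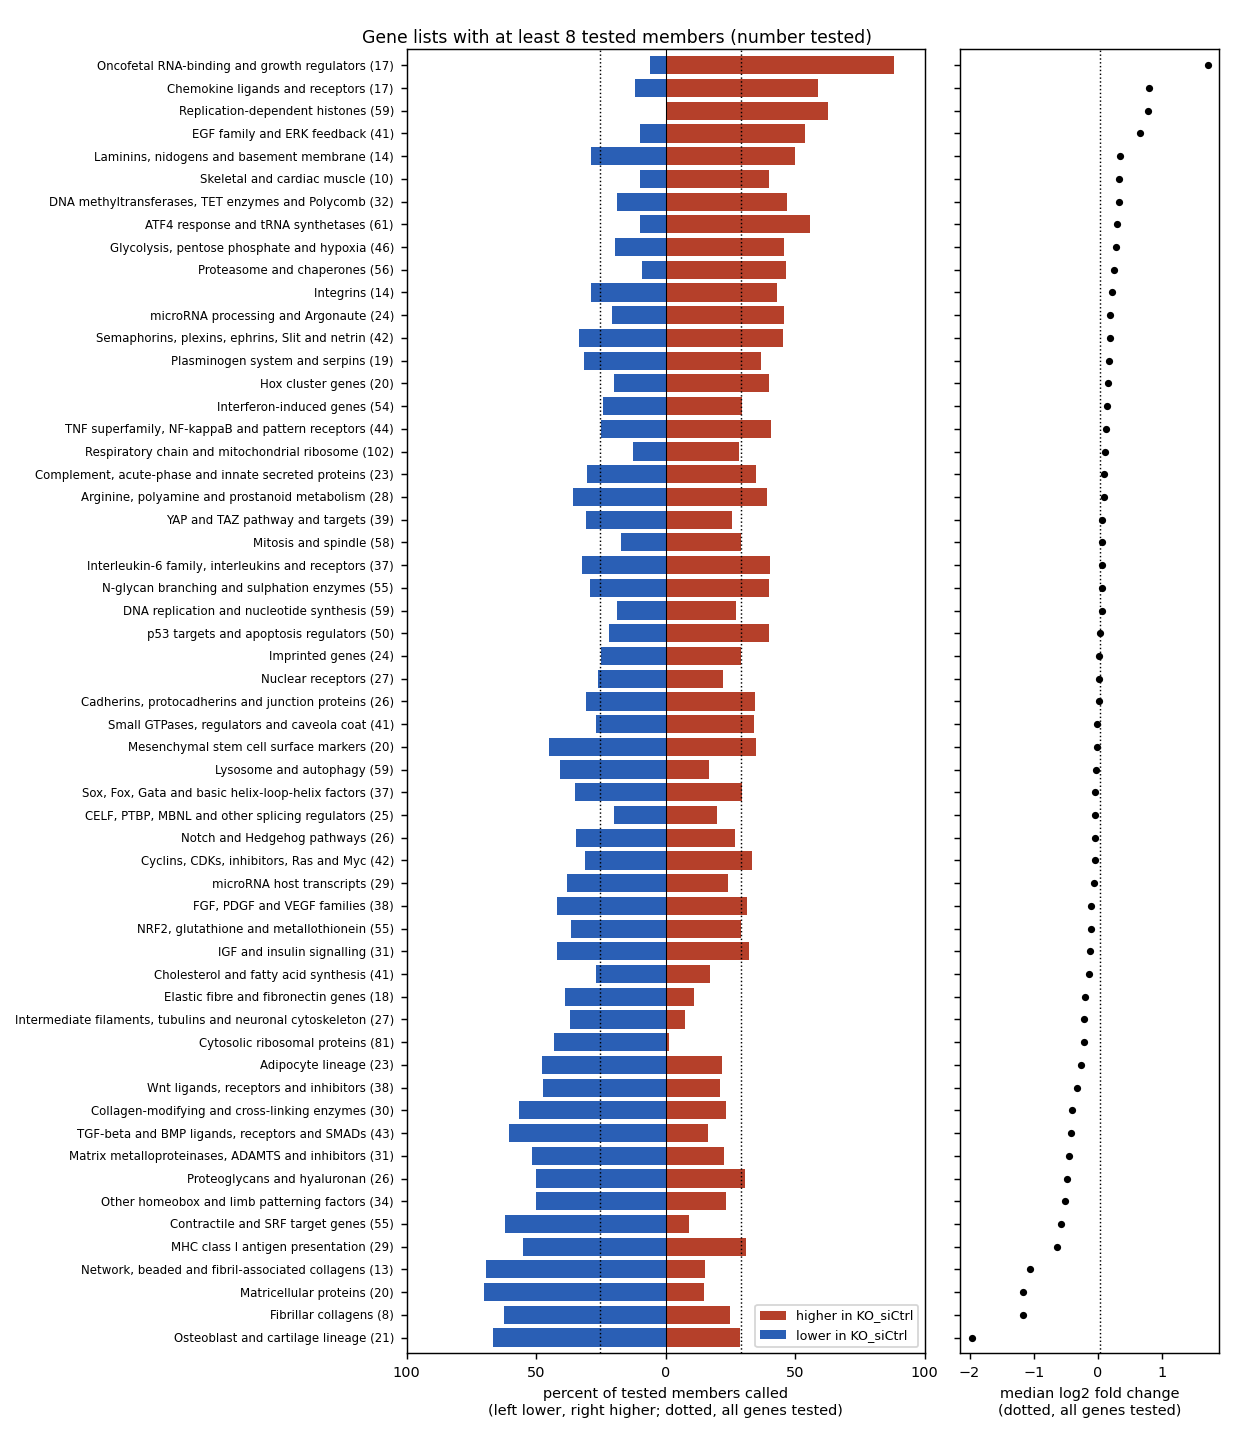
Percent of the tested members of each gene list that were called lower (left, blue) or higher (right, red) in the Dicer-null libraries, for the 57 lists with at least 8 tested members, with the median log2 fold change of the list at the right. Dotted lines give the shares and the median over all 11801 genes tested.

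The deleted gene was lower but not absent. Dicer1 had FPKM of 8.24, 5.58 and 5.93 in the 3 Dicer-intact libraries and 3.9, 3.63 and 4.06 in the 3 Dicer-null ones, and the groups did not overlap. It fell by 0.63 on the log2 scale (SE 0.132, limma adjusted p 0.00208), while an exact two-sided permutation test of 3 against 3 gave 0.1, the smallest p it can give. In the 6 other Dicer-null libraries Dicer1 was at 2.37 to 3.58 FPKM. The values cover the whole gene, and the sources used here do not say which part was deleted, so a remaining partial transcript is counted with it.

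Among the 24 tested genes of microRNA processing and Argonaute action, 11 were higher (45.8%, against 29.1% of all genes) and 5 lower (20.8%, against 25.2%), with a median of 0.19. The 3 rises of at least 1 log2 unit were of genes at the effector end of the pathway. Eif2c2, the gene of Argonaute-2, which slices targets, had FPKM of 24.7, 11.6 and 12.3 in the Dicer-intact and 44.1, 36.8 and 29.5 in the Dicer-null libraries (1.2 ± 0.304, adjusted p 0.00613). Tnrc6a, the GW182 scaffold that links Argonaute to deadenylation, stood at 19.3, 13.1 and 15.3 against 46.1, 40.6 and 40.1 (1.37 ± 0.153, adjusted p 2.38e-05). Mov10, a helicase bound to Argonaute, stood at 7.77, 9.05 and 12 against 32.5, 29.7 and 34.1 (1.66 ± 0.127, adjusted p 1.27e-06). For each of the 3 genes every Dicer-null library was above every Dicer-intact library. Upstream, Drosha, the nuclear nuclease that frees the hairpin (0.62 ± 0.124), Xpo5, its export receptor (0.48 ± 0.118), and Tarbp2, the RNA-binding partner of Dicer (0.82 ± 0.133), also rose. Eif2c1, the gene of Argonaute-1 (-0.77 ± 0.108), and Ddx6, a helicase of the decay machinery (-0.48 ± 0.116), fell. Transcripts that host microRNA hairpins went both ways, with 7 of 29 higher and 11 lower.

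Genes with let-7 or miR-15/16 matches stood highest among the families searched. Of the 11204 tested genes with an annotated 3′ UTR of at least 30 bases, 485 held an 8mer for let-7; their median log2 fold change was 0.17, against 0.03 in genes without even a 6mer, and 40.2% of them were called higher and 21.0% lower, against 28.0% and 26.3%. The difference of these medians was 0.14 for let-7, 0.13 for miR-15/16 (573 genes), 0.10 for miR-27 (764), miR-23 (845) and miR-199a-3p (318), and 0.09 for miR-125 (661), miR-17 (524) and miR-31 (489). It was 0.06 for miR-24 (1052), 0.05 for miR-26 (589), 0.02 for miR-29 (398) and 0 for miR-21 (265). Families known from other tissues lay between -0.04 (miR-142 of blood cells and miR-208 of heart) and 0.04 (miR-216), with miR-200b of epithelium at 0.03 and miR-9 of brain at 0.01. Besides miR-29 and miR-21, further families known from fibroblasts lay within that same range. They were miR-152 and miR-221 (0.04), miR-19 and miR-34 (0.03), miR-130 (0.02) and miR-22 (0). The order was not fixed: miR-15/16 was above let-7 with quantile scaling (0.13 against 0.12), at a mean FPKM of at least 5 (0.19 against 0.16) and without the libraries numbered 0 (0.17 against 0.15), where miR-216 and miR-200b stood at 0.08. These are differences of small size between broad distributions, and no test was made of them. Genes with matches have longer UTRs, with a median of 2720 bases for let-7 against 1015 without a 6mer. With the genes split by UTR length into short (up to 835 bases), middle (up to 2047) and long UTRs, the let-7 difference was 0.24 (27 genes with a site), 0.15 (147) and 0.13 (311), while that of miR-15/16 was 0.02, 0.12 and 0.18. The plot of these differences by family shows that the order of families among middle UTRs is not that over all lengths.

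**Figure D3:**
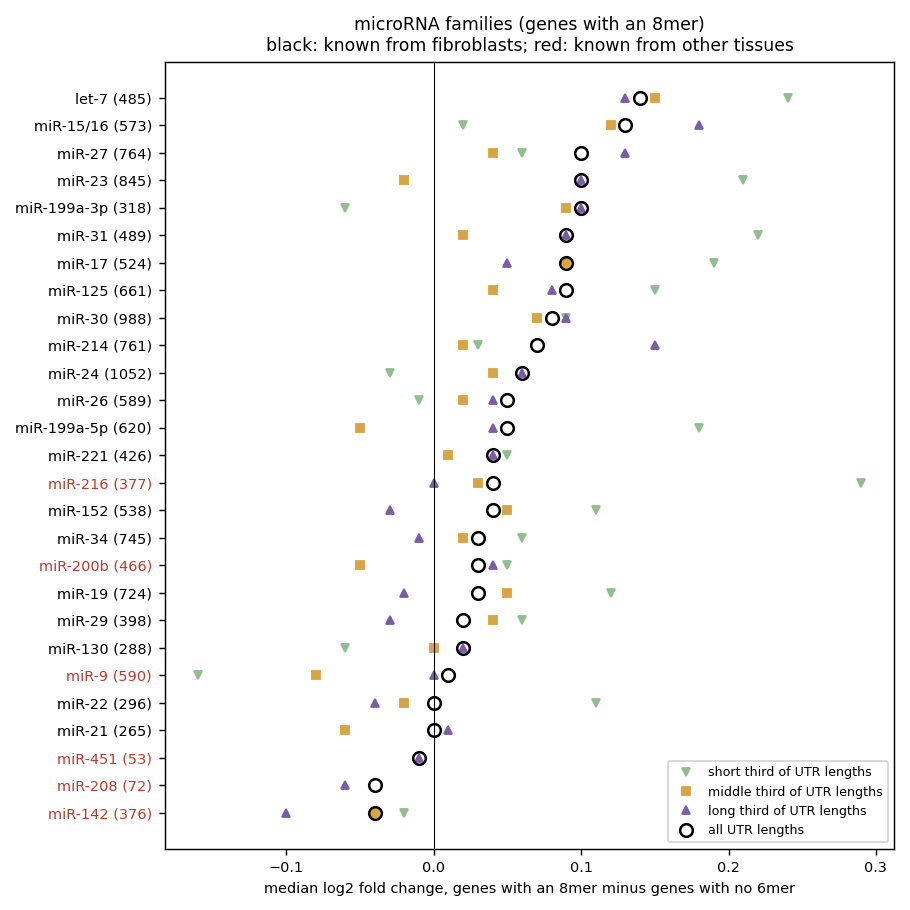
Difference between the median log2 fold change of genes with an 8mer match and that of genes with no 6mer match (x axis) for 27 microRNA families (y axis, number of genes with an 8mer in parentheses), over all UTR lengths (rings) and among short, middle and long UTRs where at least 20 such genes exist. Families known from fibroblasts are labelled in black and those known from other tissues in red. Over all UTR lengths let-7 (0.14) and miR-15/16 (0.13) lie farthest to the right, while the points of short UTRs scatter more widely, up to 0.29 for miR-216.

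Fetal and growth regulators held the largest share of rises of any list with at least 8 tested members: 15 of 17 tested oncofetal genes were higher, 13 of them by at least 1 log2 unit, with a median of 1.71. The list was drawn up largely from known let-7 targets, so its direction is not independent evidence. Igf2bp2, an RNA-binding protein of fetal tissue whose let-7 match is printed above, was among the rises (5.55 ± 0.107). Arid3a, a DNA-binding partner of E2F and a B-cell and embryonic regulator, had FPKM of 1.1, 1.45 and 1.35 in the Dicer-intact and 12.9, 13.7 and 15 in the Dicer-null libraries (2.69 ± 0.119, adjusted p 2.14e-08). All 3 Dicer-null values lay far above all 3 Dicer-intact ones. Its paralog Arid3b (1.42 ± 0.148), the zinc finger oncogene Plag1 (1.15 ± 0.113) and the repressor E2f6 (0.97 ± 0.0763) rose as well. The fall was of Plagl1, an imprinted growth suppressor related to Plag1 (-2.7 ± 0.184).

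Homeobox genes outside the Hox clusters fell more often than they rose, with 17 of 34 lower, 8 higher and a median of -0.52. Dlx5, which drives limb and bone formation, had FPKM of 40, 68.7 and 75.2 in the Dicer-intact and 3.51, 7.66 and 3.46 in the Dicer-null libraries (-3.43 ± 0.308, adjusted p 4.37e-06), without overlap. Its linked neighbour Dlx6 (-3.07 ± 0.226), Msx2, a target of BMP signals in the skull (-2.8 ± 0.138), Irx3 (-2.58 ± 0.413) and the limb mesenchyme gene Prrx1 (-1.19 ± 0.116) fell too. Pbx2 (1.41 ± 0.125) and Pbx3 (1.48 ± 0.117), cofactors of Hox proteins, rose. Of the Hox genes themselves, 8 of 20 were higher and 4 lower: the distal members Hoxa13 (-2.49 ± 0.214) and Hoxc12 (-1.86 ± 0.232) fell, and Hoxa9 (0.61 ± 0.143) rose. Sox, Fox, Gata and helix-loop-helix factors split, 11 higher and 13 lower of 37, with rises of Gata4 (1.64 ± 0.119), Twist2 (1.14 ± 0.222) and the cartilage regulator Sox9 (1.06 ± 0.176) and falls of Foxc2 (-2.03 ± 0.162) and Sox8 (-1.84 ± 0.076).

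Chromatin regulators rose in 15 of 32 cases and fell in 6, with a median of 0.33. Rises included Dnmt3b, a de novo DNA methyltransferase (0.63 ± 0.128), Tet3, which oxidises methylcytosine (0.91 ± 0.0953), and the Polycomb genes Cbx7 (1.06 ± 0.121) and Phf19 (1.03 ± 0.128). Dnmt1, the maintenance methyltransferase, fell (-0.51 ± 0.105). Splicing regulators were at 5 higher and 5 lower of 25, a balance that shifts with the scaling of the libraries. The largest change among them was of Khdrbs3 (T-STAR, an RNA-binding protein of the STAR family), with FPKM of 14.3, 18.7 and 13.7 in the Dicer-intact and 0.0165, 0.101 and 0.0297 in the Dicer-null libraries (-3.97 ± 0.121, adjusted p 1.23e-09). Khdrbs3 was at 0.00421 to 0.246 FPKM in the 6 other Dicer-null libraries. Ptbp2, the neural PTB protein (1.08 ± 0.125), and Rbm38 (1.84 ± 0.249) rose, Celf2 (-1.32 ± 0.137) and Mbnl1 (-0.91 ± 0.157) fell, and Ptbp1 was not called (-0.11 ± 0.0891).

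The collagen matrix was lower in the Dicer-null libraries, with exceptions that ran the other way. Of 8 tested fibrillar collagen genes 5 were lower and 2 higher (median -1.17), and of 13 network, beaded and fibril-associated ones 9 were lower and 2 higher (median -1.06). Col1a1, the main chain of the collagen of bone and skin, had FPKM of 785, 647 and 901 in the Dicer-intact and 243, 235 and 230 in the Dicer-null libraries (-1.7 ± 0.122, adjusted p 7.34e-07). The lowest Dicer-intact library was above the highest Dicer-null library. Col6a1, a beaded collagen, went from 670, 763 and 971 to 278, 300 and 262 (-1.5 ± 0.152, adjusted p 1.14e-05), and its partner chain Col6a2 fell alike (-1.58 ± 0.194). Col3a1, the chain of collagen III that is laid down with collagen I in soft tissue and wounds, moved the other way, at 54.6, 60.7 and 51.5 against 192, 181 and 150 (1.63 ± 0.184, adjusted p 2.56e-05). Its Dicer-null libraries were all above its Dicer-intact ones, and the 6 other Dicer-null libraries held 175 to 277. Col5a1 rose (0.87 ± 0.117) while Col5a2, whose chain joins it in collagen V, fell (-0.64 ± 0.0981). The basement membrane chains Col4a1 (-1.07 ± 0.18) and Col4a2 (-1.06 ± 0.203), which share a promoter region, fell by like amounts. Col12a1 (-2.02 ± 0.34), Col15a1 (-1.8 ± 0.257) and Col8a1 (-1.21 ± 0.174) fell too, whereas Col18a1 (1.46 ± 0.145) and the anchoring fibril gene Col7a1 (1.27 ± 0.133) rose. In share of the summed FPKM of a library, fibrillar collagens took 0.410% to 0.482% with Dicer and 0.181% to 0.204% without.

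Enzymes that modify and cross-link collagen were lower in 17 of 30 cases and higher in 7. Loxl1, a lysyl oxidase of elastic fibres, had FPKM of 167, 234 and 315 in the Dicer-intact and 18.3, 28.2 and 23.8 in the Dicer-null libraries (-3.26 ± 0.279, adjusted p 3e-06). Leprel2, a prolyl 3-hydroxylase (-2.83 ± 0.166), and Loxl2 (-1.07 ± 0.121) fell, while Loxl4 (0.85 ± 0.109) and Adamts14, which trims the amino end of procollagen (1.32 ± 0.143), rose. Tgm2, the tissue transglutaminase that links matrix proteins by another bond, stood at 8.71, 7.79 and 11.3 against 84.2, 74.1 and 77.7 (2.97 ± 0.135, adjusted p 2.59e-08). The lysyl oxidase and the transglutaminase thus lay on opposite sides, each without overlap between the groups. Elastic fibre genes fell in 7 of 18 cases and rose in 2, with Ltbp2 (-2.68 ± 0.107), Fbln5 (-2.58 ± 0.228) and Efemp2 (-1.94 ± 0.157), which guide elastin assembly, among the falls, and with Fn1, fibronectin (-0.08 ± 0.234), not called.

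Matricellular proteins, secreted regulators that sit in the matrix without building it, were lower in 14 of 20 cases and higher in 3 (median -1.16). Fstl3, an activin antagonist, had FPKM of 21, 23.7 and 22.2 in the Dicer-intact and 0.0266, 0.298 and 0.00306 in the Dicer-null libraries (-4.4 ± 0.109, adjusted p 3.5e-10). Smoc2 (-2.91 ± 0.294), Nov, a CCN protein (-2.83 ± 0.279), and Thbs2, a thrombospondin (-0.98 ± 0.113), fell. Spp1 (osteopontin), which was among the most abundant transcripts of these cells, rose from 2100, 2390 and 2820 to 3900, 4320 and 4010 (0.75 ± 0.129, adjusted p 0.000516). With it included, the list as a whole took 0.979% to 1.1% of summed FPKM with Dicer and 1.1% to 1.21% without, although most members fell.

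Proteoglycans were lower in 13 of 26 cases and higher in 8. Bgn (biglycan), a small proteoglycan of bone matrix, had FPKM of 779, 793 and 917 in the Dicer-intact and 112, 98.6 and 89.8 in the Dicer-null libraries (-3.04 ± 0.104, adjusted p 2.82e-09). Sdc3, a membrane heparan sulphate proteoglycan, went from 160, 199 and 215 to 6.13, 8.79 and 6.09 (-4.59 ± 0.171, adjusted p 6.24e-09). No library of either group came near the other group, and the 6 other Dicer-null libraries held 82.8 to 121 for Bgn and 7.75 to 22.7 for Sdc3. Sdc2 fell (-1.53 ± 0.211) and Sdc4 rose (1.09 ± 0.115), so syndecans did not move as a family. Among hyaluronan genes, the synthase Has1 (1.2 ± 0.168), the hyaluronan-binding Vcan, versican (1.71 ± 0.117), and the receptor Cd44 (0.89 ± 0.113) rose, and the synthase Has2 fell (-1.17 ± 0.291).

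Some laminin chains were higher in the Dicer-null libraries while others were lower. Of 14 tested laminin, nidogen and basement membrane genes, 7 were higher and 4 lower (median 0.35). Lama5, the laminin alpha chain of adult epithelial and vascular basement membranes, had FPKM of 2.97, 1.6 and 2.28 in the Dicer-intact and 23.8, 19.2 and 24.3 in the Dicer-null libraries (2.85 ± 0.153, adjusted p 8.63e-08). Lamb1, a beta chain, stood at 29.5, 19 and 20.5 against 121, 102 and 127 (2.31 ± 0.158, adjusted p 5.29e-07). Both were higher in every Dicer-null library than in any Dicer-intact one, and the gamma chain Lamc1 (0.95 ± 0.156) and the linker Nid1 (0.67 ± 0.0987) rose with them. Lamb2, which replaces Lamb1 in mature basement membranes, fell (-1.75 ± 0.107). In spite of the count, the share of summed FPKM taken by the list was smaller without Dicer, at 0.281% to 0.296% against 0.355% to 0.398%. Ntn1 (netrin-1), a laminin-related guidance protein whose miR-17 match is printed above, stood at 3.73, 2.61 and 3.68 against 41.6, 34.4 and 39.4 (3.19 ± 0.136, adjusted p 1.59e-08).

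Matrix proteases and their inhibitors were lower in 16 of 31 cases and higher in 7, with falls of Adamts9, a versican-cutting protease (-3.28 ± 0.294), Adam19 (-2.65 ± 0.0947) and the inhibitor Timp1 (-0.98 ± 0.139) and rises of Mmp9, gelatinase B (1.16 ± 0.241), and Adam8 (2.37 ± 0.155). The plasminogen and clotting genes split, 7 higher and 6 lower of 19. Plau (urokinase), which turns plasminogen into plasmin and carries the miR-29 match printed above, had FPKM of 27.1, 19.3 and 20.1 in the Dicer-intact and 82.7, 77.2 and 82.3 in the Dicer-null libraries (1.83 ± 0.114, adjusted p 2.45e-07). Its receptor Plaur (0.95 ± 0.121) and tissue plasminogen activator Plat (1.33 ± 0.183) rose as well. Serpine2, an inhibitor of these proteases, fell (-3.18 ± 0.351). Tfpi, the inhibitor of tissue factor, with the miR-15/16 match shown, was near 0 with Dicer (0.0179, 0.204 and 0.0642) and at 10.2, 7.61 and 8.26 without it (3.14 ± 0.154, adjusted p 4.4e-08). These activators of plasmin and this inhibitor of clotting were thus higher in all 3 Dicer-null libraries. They are picked members of a list that split, and its majority changed in 3 of the 18 other settings.

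Integrin genes were higher in 6 and lower in 4 of 14 cases (median 0.22). Itgb7, a beta chain best known from lymphocytes that home to the gut, had FPKM of 2.57, 2.18 and 2.95 in the Dicer-intact and 57.7, 42.4 and 66.4 in the Dicer-null libraries (3.97 ± 0.294, adjusted p 9.84e-07). The rises otherwise took in receptors of fibronectin, vitronectin and laminin: Itgb3 (1.77 ± 0.156), Itgb4 (1.2 ± 0.168), Itga3 (1.09 ± 0.114), Itga5 (0.88 ± 0.0736) and Itgav (0.57 ± 0.146). The collagen receptor chains Itga1 (-1.54 ± 0.149) and Itga11 (-1.26 ± 0.191) fell, as did Itga9 (-2.11 ± 0.296). Cadherin and junction genes were at 9 higher and 8 lower of 26, a majority that changes with the scaling, with rises of Jup, plakoglobin (2.28 ± 0.144), and Cdh11, the mesenchymal cadherin (1.79 ± 0.284), a fall of Mcam, CD146 (-3.33 ± 0.149), and no call for Cdh2, N-cadherin (-0.03 ± 0.0682).

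**Figure D4:**
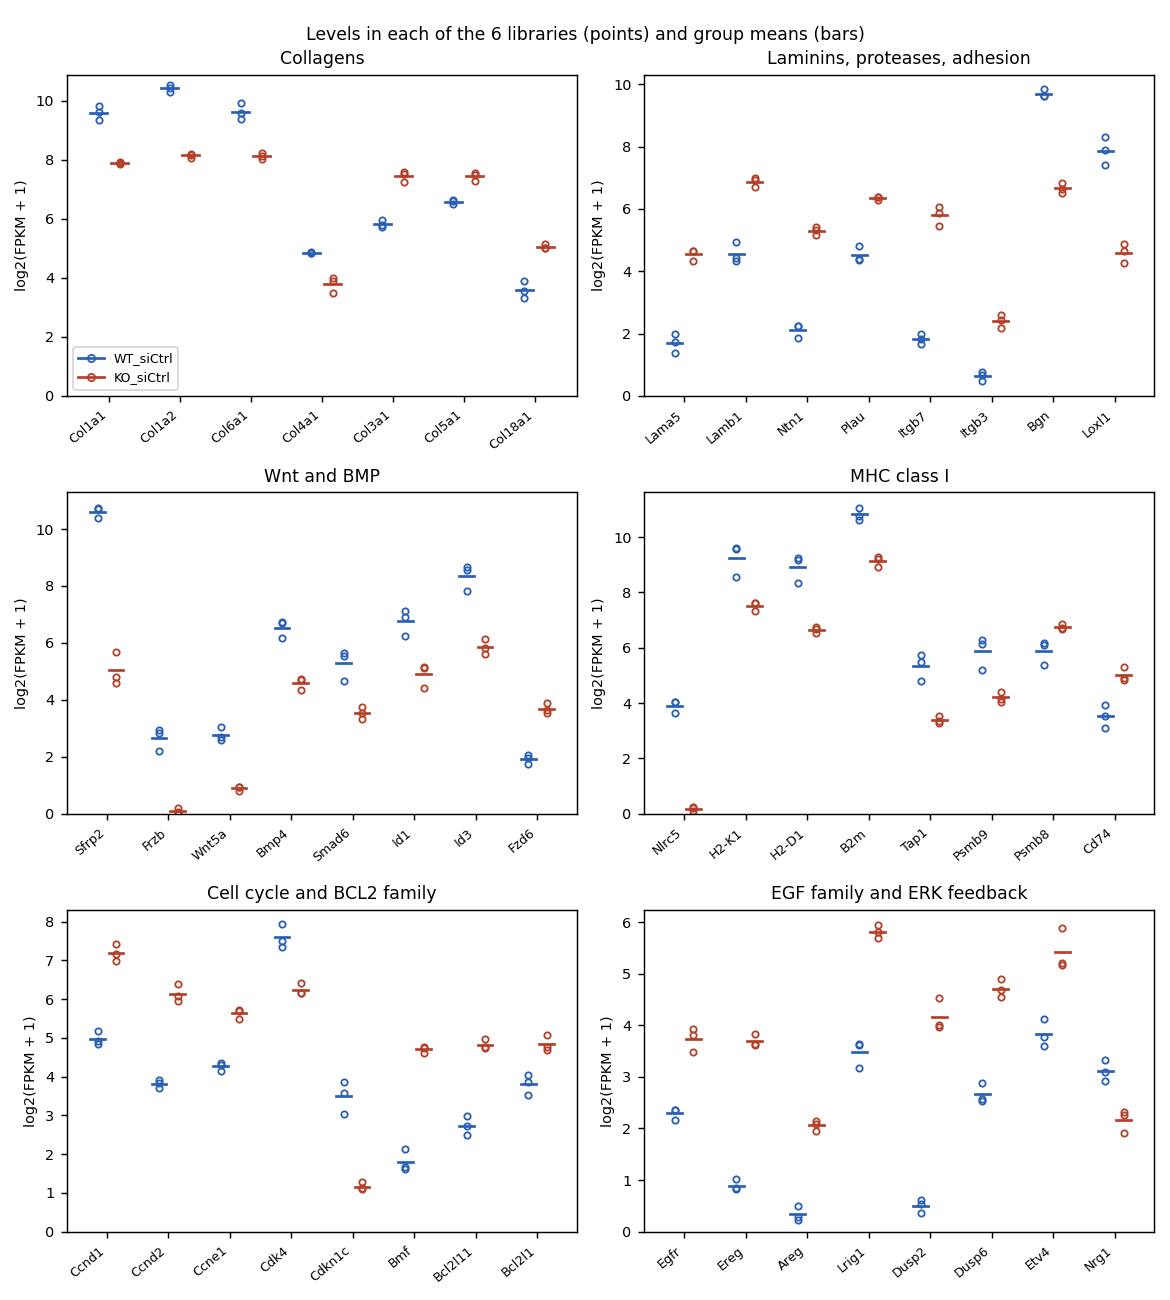
Level of genes of 6 groups in each library on a log2(FPKM + 1) scale (y axis, starting at 0), with the 3 Dicer-intact libraries in blue, the 3 Dicer-null ones in red and the mean of each group as a bar. Most collagens, Wnt and BMP genes and MHC class I genes are lower in red, while Col3a1, laminins, D-type cyclins and Bmf are higher.

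The contractile apparatus was lower as a group. Of 55 tested contractile genes and targets of serum response factor (SRF), 34 were lower, 15 of them by at least 1 log2 unit, and 5 were higher, none by 1 log2 unit, with a median of -0.57. The list took 1.92% to 2% of summed FPKM in the Dicer-intact and 1.08% to 1.2% in the Dicer-null libraries. Fhl1, a LIM-domain protein of stress fibres and sarcomeres, had FPKM of 87.3, 80.7 and 62.1 in the Dicer-intact and 0.523, 0.679 and 0.521 in the Dicer-null libraries (-5.61 ± 0.137, adjusted p 3.5e-10). Csrp2, a muscle LIM protein, went from 287, 366 and 359 to 39.9, 47.6 and 31.8 (-3.06 ± 0.194), and Myl6, the essential light chain of nonmuscle myosin, from 1100, 1160 and 1130 to 389, 404 and 383 (-1.53 ± 0.0918). For the 3 genes the groups were far apart. Mylk, myosin light chain kinase (-2.05 ± 0.143), Lmod1, an actin nucleator of smooth muscle (-2.05 ± 0.141), the tropomyosins Tpm1 (-1.6 ± 0.0948), Tpm2 (-1.81 ± 0.0966) and Tpm4 (-1.16 ± 0.0974) and the actin cross-linker Flna (-0.97 ± 0.149) also fell. Flnc, filamin C (0.84 ± 0.136), and Synpo, synaptopodin (0.62 ± 0.0969), were among the 5 that rose. The transcript of the factor itself did not differ detectably: Srf was at 25, 28.5 and 29.5 with Dicer and 27.6, 25.5 and 29.7 without (-0.0 ± 0.0955, adjusted p 0.989), and the groups overlapped. Tmsb4x, thymosin beta-4, which holds free actin monomers, fell from 432, 432 and 314 to 18, 21.4 and 9.64 (-4.56 ± 0.27).

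SRF binds the CArG box, a palindromic run of A and T between C and G pairs. The box was searched on both strands in RefSeq promoter windows of 300 bases that lie mostly upstream of the annotated start (GRCm38.p6), and 1.63% of all windows held it. It was found for 11 of the 49 contractile genes that had a window (22.4%; 2 of the 49 were not among the genes tested), against 1.6% of tested genes. It was held by 9 of 30 lower members, 2 of 14 members not called and 0 of 3 higher ones. The list was composed in part of known SRF targets, so the share describes the list and does not test it. The boxes of the lower genes Fhl1, Myl6 and Filip1l are shown with that of Srf, which was not called, to give the contrast, in capitals within 30 bases on the gene's strand and with the distance of the box from the start.
Fhl1, -102, in chrX:56779433-56779732 (plus strand): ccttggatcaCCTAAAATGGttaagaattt
Myl6, -50, in chr10:128492960-128493259 (minus strand): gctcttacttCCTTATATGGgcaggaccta
Filip1l, -62, in chr16:57548992-57549291 (plus strand): atgccgcgcgCCTTATAAGGctgagcggtg
Srf, -82, in chr17:46556113-46556412 (minus strand): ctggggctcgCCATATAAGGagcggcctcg

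Genes of the YAP and TAZ pathway, which reads cell stretch, were at 10 higher (25.6%) and 12 lower (30.8%) of 39, with a median of 0.07. Tead4, a DNA-binding partner of YAP, had FPKM of 0.892, 0.522 and 0.623 in the Dicer-intact and 13.9, 10.8 and 16.5 in the Dicer-null libraries (3.12 ± 0.17, adjusted p 9.35e-08), while Vgll3, which competes for such partners (-1.86 ± 0.136), and the target Amotl2 (-1.23 ± 0.0995) fell. The classical target Cyr61 was not called (-0.17 ± 0.304). Rhou, an atypical small GTPase with the miR-26 match shown, stood at 0.841, 1.04 and 0.92 against 20.7, 14.1 and 16.8 (3.22 ± 0.122, adjusted p 7.25e-09), with no overlap. Arhgdib, which keeps small GTPases in the cytosol, rose (2.71 ± 0.136), and Rhoa, the main activator of stress fibres (-1.25 ± 0.0971), and Rhoj (-2.58 ± 0.117) fell.

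Wnt pathway genes were lower in 18 of 38 cases, 12 by at least 1 log2 unit, and higher in 8. The 4 largest falls were of inhibitors. Sfrp2, which binds Wnt ligands outside the cell, had FPKM of 1330, 1720 and 1670 in the Dicer-intact and 23.4, 50.6 and 26.9 in the Dicer-null libraries (-5.58 ± 0.299, adjusted p 8.52e-08). It ranged over 48.9 to 222 in the 6 other Dicer-null libraries, below each Dicer-intact library. The secreted inhibitors Frzb (-2.57 ± 0.16) and Wif1 (-2.96 ± 0.445) and the intracellular one Nkd2 (-2.74 ± 0.165) fell as well. Among ligands and receptors of the noncanonical branch, Wnt5a (-1.88 ± 0.16) and its receptor Ror2 (-2.01 ± 0.143) fell, but Wnt5b rose (1.34 ± 0.112). Wnt7b (1.56 ± 0.186), the receptors Fzd6 (1.77 ± 0.12) and Lgr4 (1.24 ± 0.178) and the agonist Rspo3 (0.69 ± 0.147) rose, and Fzd1 fell (-1.31 ± 0.156). Ligands and receptors thus changed in both directions. The inhibitors above were named for the size of their fall, so they do not stand for all inhibitors. Sfrp1, of the same family as Sfrp2, was not called in the reported fit (-0.39, limma adjusted p 0.302) but was with the replicate block (limma adjusted p 0.0211). Signalling through the pathway was not measured.

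TGF-beta and BMP pathway genes were lower in 26 of 43 cases and higher in 7 (median -0.42). Bmp4, a ligand that drives bone formation, had FPKM of 71.4, 102 and 105 in the Dicer-intact and 19.1, 25 and 25.4 in the Dicer-null libraries (-1.95 ± 0.19, adjusted p 7.99e-06). Id3, a direct BMP target that blocks helix-loop-helix factors, went from 228, 405 and 373 to 47.7, 69.5 and 56.2 (-2.49 ± 0.246, adjusted p 8.92e-06). Both were lower in every Dicer-null library than in any Dicer-intact one. Id1 (-1.87 ± 0.319), the feedback inhibitor Smad6 (-1.76 ± 0.27), the BMP effector Smad9 (-1.45 ± 0.181) and the decoy receptor Bambi (-1.44 ± 0.0841) fell. So did antagonists of these ligands, Chrdl1 (-3.63 ± 0.124) and Fst, follistatin (-1.74 ± 0.238), and the activin chain Inhba (-1.43 ± 0.27). Among receptors, Tgfbr2 (0.53 ± 0.133), the coreceptor Tgfbr3 (1.57 ± 0.153) and Bmpr1a (0.67 ± 0.141) rose. Tgfb3 fell (-0.98 ± 0.101), and Tgfb1 was not called (-0.2 ± 0.189).

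The EGF family and the feedback genes of the ERK pathway were higher in 22 of 41 cases, 13 by at least 1 log2 unit, and lower in 4 (median 0.65). Egfr, the receptor, had FPKM of 4.1, 3.5 and 4.09 in the Dicer-intact and 13, 14.2 and 10.2 in the Dicer-null libraries (1.45 ± 0.159, adjusted p 2.06e-05). Lrig1, which sends the receptor to degradation, stood at 11.2, 7.96 and 11.5 against 55, 50.9 and 60.5 (2.34 ± 0.125), and Dusp2, a nuclear ERK phosphatase with the miR-17 match shown, at 0.284, 0.456 and 0.521 against 15, 14.6 and 22.1 (3.66 ± 0.194, adjusted p 7.77e-08). Receptor and negative regulators were higher together, each without overlap. The ligand Areg (1.73 ± 0.149), the transcription factors Etv1 (1.81 ± 0.15) and Etv4 (1.59 ± 0.242), the phosphatases Dusp4 (1.19 ± 0.162) and Dusp5 (1.79 ± 0.139) and the inhibitors Spry1 (1.17 ± 0.169) and Errfi1 (0.85 ± 0.095) rose. Nrg1 fell (-0.95 ± 0.148). The immediate early gene Egr1 (0.18 ± 0.778) and the inhibitor Spry4 (0.02 ± 0.144) were not called. Fos, another immediate early gene, was not called in the reported fit (1.06, limma adjusted p 0.187) but was with the replicate block (adjusted p 0.00059). Among all gene symbols sharing a stem, 11 of 17 tested Dusp genes were higher and 1 was lower.

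Other growth factor families went both ways. Of 38 FGF, PDGF and VEGF genes, 12 were higher and 16 lower: Flt1, a VEGF receptor, stood at 0.198, 0.255 and 0.199 in the Dicer-intact and 6.07, 6.2 and 5.55 in the Dicer-null libraries (2.51 ± 0.119), and Vegfc (1.45 ± 0.123), Hgf (1.27 ± 0.175) and its receptor Met (1.68 ± 0.208) rose. Angpt2 rose (2.31 ± 0.141) and Angpt1, which acts on the same receptor in the opposite sense, fell (-1.85 ± 0.259). The receptors Fgfr1 (-2.06 ± 0.111) and Fgfr3 (-2.24 ± 0.26) and the marrow niche factor Kitl (-2.01 ± 0.18) fell. IGF and insulin genes were at 10 higher and 13 lower of 31 (median -0.12), with falls of Igfbp7 (-1.5 ± 0.2) and Pappa, which frees IGF from its binding proteins (-1.84 ± 0.154). Notch and Hedgehog genes were at 7 higher and 9 lower of 26. Hedgehog pathway genes split, with Boc (-2.83 ± 0.14) and Hhip (-2.57 ± 0.0801) lower and Ptch1 (1.02 ± 0.254) and the effector Gli2 (1.25 ± 0.117) higher, while Notch1 fell (-1.12 ± 0.0843).

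Guidance cues and their receptors changed widely, with 19 of 42 higher and 14 lower. Ephb2, a receptor of ephrin-B ligands, had FPKM of 12.5, 11.3 and 14.6 in the Dicer-intact and 0.0244, 0.0466 and 0.0445 in the Dicer-null libraries (-3.72 ± 0.0949, adjusted p 3.5e-10), and its ligand Efnb1 fell too (-2.34 ± 0.172). Semaphorins rose more often than they fell: 10 of 15 genes whose symbol begins with Sema were higher and 2 lower, among the rises Sema5a (2.09 ± 0.222), Sema3g (1.36 ± 0.15), Sema4b (1.25 ± 0.142) and Sema3a (1.05 ± 0.123). Sema6d (-2.16 ± 0.113) and the coreceptor Nrp1 (-1.53 ± 0.185) fell.

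The antigen display machinery of MHC class I was lower in 16 of 29 cases and higher in 9 (median -0.64). Nlrc5, the transactivator of class I genes, had FPKM of 11.5, 15.5 and 15.6 in the Dicer-intact and 0.153, 0.19 and 0.0751 in the Dicer-null libraries (-3.73 ± 0.122, adjusted p 2.03e-09). B2m, the light chain shared by class I molecules, went from 1590, 2150 and 1750 to 630, 585 and 488 (-1.68 ± 0.138, adjusted p 2.13e-06). H2-K1, a classical heavy chain, went from 372, 779 and 762 to 158, 198 and 196 (-1.72 ± 0.253, adjusted p 0.000169). In all 3 genes no Dicer-null library reached the lowest Dicer-intact one, and class I heavy chains are so alike in sequence that reads may be shared between them. The peptide transporter Tap1 (-1.94 ± 0.203) and the immunoproteasome subunit Psmb9 (-1.67 ± 0.27), which share a promoter, fell. The other immunoproteasome subunits Psmb8 (0.87 ± 0.187) and Psmb10 (0.66 ± 0.142) and the activators Psme1 (0.83 ± 0.113) and Psme2 (0.72 ± 0.181) rose, as did the trimming peptidase Erap1 (1.04 ± 0.147). Tap2, the partner of Tap1, was not called (0.17 ± 0.178). Over 54 interferon-induced genes no side prevailed, with 16 higher and 13 lower: Rsad2 (1.93 ± 0.161), Zbp1 (2.14 ± 0.314) and Oas1a (1.4 ± 0.183) rose, Irgm1 (-1.91 ± 0.147), Irf5 (-1.5 ± 0.189) and Ifit1 (-1.38 ± 0.2) fell, and Isg15 (0.03 ± 0.273) was not called.

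Chemokine genes were higher in 10 of 17 cases and lower in 2 (median 0.8, but 0.06 with no filter on low values). Their summed FPKM overlapped between the groups, at 789 to 1400 with Dicer and 1010 to 1390 without. Cxcl1, a neutrophil attractant, had FPKM of 16.1, 30.2 and 17 in the Dicer-intact and 130, 200 and 132 in the Dicer-null libraries (2.84 ± 0.286, adjusted p 1.04e-05). Ppbp (1.91 ± 0.143), Cx3cl1 (1.59 ± 0.146), Ccl9 (1.4 ± 0.267) and the scavenger receptor Cxcr7 (2.58 ± 0.157) rose, and Cxcl14 fell (-1.42 ± 0.273). Interleukin genes were at 15 higher and 12 lower of 37 (median 0.07). Il34, a macrophage growth factor (1.95 ± 0.115), the oncostatin receptor Osmr (1.04 ± 0.173) and the feedback gene Socs3 (1.62 ± 0.209) rose. Il18 (-2.27 ± 0.193), Il15 (-1.53 ± 0.236), Il7 (-1.46 ± 0.0992) and the LIF receptor Lifr (-1.06 ± 0.21) fell. TNF and NF-kappaB genes were at 18 higher and 11 lower of 44 (median 0.13). Tnfrsf9 (2.23 ± 0.193), Traf1 (1.26 ± 0.151) and Nfkbiz (1.31 ± 0.114) rose, while Ptx3 (-2.83 ± 0.333) and Rela, the main NF-kappaB subunit (-1.04 ± 0.0959), fell. Secreted innate proteins were at 8 higher and 7 lower of 23, a majority that changes with the scaling. Slpi, an inhibitor of neutrophil elastase, stood at 8.11, 9.68 and 12.4 against 146, 119 and 150 (3.67 ± 0.167, adjusted p 2.59e-08) and at 249 to 423 in the 6 other Dicer-null libraries. Every Dicer-null library of the study was thus above every Dicer-intact one for Slpi. The central complement component C3 rose (2.41 ± 0.272).

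Cyclin D genes were among the rises in the cell cycle lists. Ccnd1, which starts the G1 phase with CDK4 or CDK6, had FPKM of 34.9, 29.4 and 27.6 in the Dicer-intact and 142, 125 and 170 in the Dicer-null libraries (2.21 ± 0.181, adjusted p 2.12e-06). Ccnd2, with the miR-26 match shown, stood at 13.3, 14 and 12.1 against 66.8, 61.1 and 82.3 (2.32 ± 0.144, adjusted p 2.45e-07). Cdk4, the partner kinase, was at 162, 246 and 181 against 70, 83.6 and 70.3 (-1.36 ± 0.172, adjusted p 5.63e-05). Cyclins and kinase thus lay on opposite sides, without overlap, and the related kinase Cdk6 rose (1.22 ± 0.182). Ccnd3 (1.44 ± 0.104), Ccne1 (1.36 ± 0.0869) and the CDK inhibitor Cdkn1a, p21 (1.28 ± 0.323), rose, and the inhibitors Cdkn1c (-2.33 ± 0.214) and Cdkn2b (-0.82 ± 0.145) fell. Ccna2, cyclin A (0.03 ± 0.0971), and E2f1 (-0.06 ± 0.136) were not called. The list of cyclins, kinases, inhibitors, Ras and Myc genes was at 14 higher and 13 lower of 42, a majority that changes with the scaling. Mitosis genes were at 17 higher and 10 lower of 58 (median 0.07), with Cdc25b (1.05 ± 0.0965) and Bub1b (0.85 ± 0.109) among the rises, and replication genes at 16 higher and 11 lower of 59, a majority that changes with the scaling, with no called change of 1 log2 unit. The shares called higher, 29.3% and 27.1%, were near the 29.1% of all genes. Replication-dependent histone genes differed from them, with 37 of 59 higher (62.7%) and 0 lower. Their median was 0.78, but 0.36 at a mean FPKM of at least 5. Across the other settings, some of which test other numbers of members, 14 to 41 histone genes were higher and 0 to 1 lower. The libraries were of polyadenylated RNA, and how fully it captures histone transcripts was not tested.

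Genes of the BCL2 family, which holds both killers and guardians of the cell, changed in both directions. Bmf, a BH3-only killer with the miR-29 match shown, had FPKM of 2.04, 2.16 and 3.39 in the Dicer-intact and 26.1, 25.5 and 23.6 in the Dicer-null libraries (2.9 ± 0.248, adjusted p 2.99e-06). In the 6 other Dicer-null libraries Bmf ranged over 2.74 to 22.8, and the lowest of these lay within the Dicer-intact range. That range pools the let-7g and Nr6a1 libraries, so it is not a spread of Dicer loss alone. Bcl2l11, BIM, rose as well (2.09 ± 0.114). So did the guardians Bcl2 (1.2 ± 0.135), Bcl2l1 (1.02 ± 0.14) and Mcl1 (0.56 ± 0.0721). The killers Bok (-1.61 ± 0.172), Pmaip1, NOXA (-1.58 ± 0.132), and Bad (-1.1 ± 0.183) fell. Trp53 (0.16 ± 0.09), Bax (0.03 ± 0.173) and Bbc3, PUMA (0.21 ± 0.307), were not called. Over the 50 tested p53 targets and apoptosis regulators 20 were higher and 11 lower, with a median of 0.03, near that of all genes.

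Glycolysis and hypoxia genes were higher in 21 of 46 cases and lower in 9 (median 0.28), with called isoforms on both sides: Aldoc (2.58 ± 0.11), Eno3 (2.3 ± 0.153), Pfkp (1.62 ± 0.11), Hk2 (1.38 ± 0.177) and Ldhb (1.39 ± 0.101) rose, the glucose transporter Slc2a1 rose (1.0 ± 0.133) and Slc2a3 fell (-1.68 ± 0.0937), and Pdk1 (-1.64 ± 0.106) and the hypoxia factor Epas1 (-1.73 ± 0.191) fell. Genes of the ATF4 amino acid response and tRNA synthetases were higher in 34 of 61 cases and lower in 6 (median 0.3), among them the serine synthesis enzyme Phgdh (1.13 ± 0.144), Cebpb (1.59 ± 0.364) and Chac1 (1.06 ± 0.237). Proteasome and chaperone genes were higher in 26 of 56 and lower in 5, but the chaperone Hspb1 fell from 78, 95.7 and 98.8 to 12.7, 9.42 and 16.9 (-2.74 ± 0.209). Lysosome and autophagy genes were lower in 24 of 59 (40.7%) and higher in 10 (16.9%), but their median was -0.03, near that of all genes. There the cathepsins split, with Ctsl at 183, 181 and 187 against 503, 479 and 555 (1.47 ± 0.112) and Ctsh (-3.17 ± 0.169) and Ctsc (-1.84 ± 0.157) lower. Antioxidant genes were at 16 higher and 20 lower of 55, with Sod3, the extracellular superoxide dismutase (-3.89 ± 0.128), and Gpx7 (-3.63 ± 0.148) lower and Aldh1a2, which makes retinoic acid (3.31 ± 0.404), higher.

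Cytosolic ribosomal protein genes were lower in 35 of 81 cases and higher in 1, Rps7 (0.64 ± 0.104), with a median of -0.22. Falls of over 1 log2 unit were seen for 6, among them Rplp1 (-1.37 ± 0.176), Rpsa (-1.34 ± 0.101) and Rps12 (-1.34 ± 0.117). The list took 9.72% to 10.3% of summed FPKM in the Dicer-intact and 7.88% to 8.31% in the Dicer-null libraries, so the groups did not overlap. These genes have many processed pseudogenes that can share their reads. Respiratory chain and mitochondrial ribosome genes were higher in 29 of 102 cases (28.4%), near the 29.1% of all genes, and lower in 13 (12.7%, against 25.2%).

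**Figure D5:**
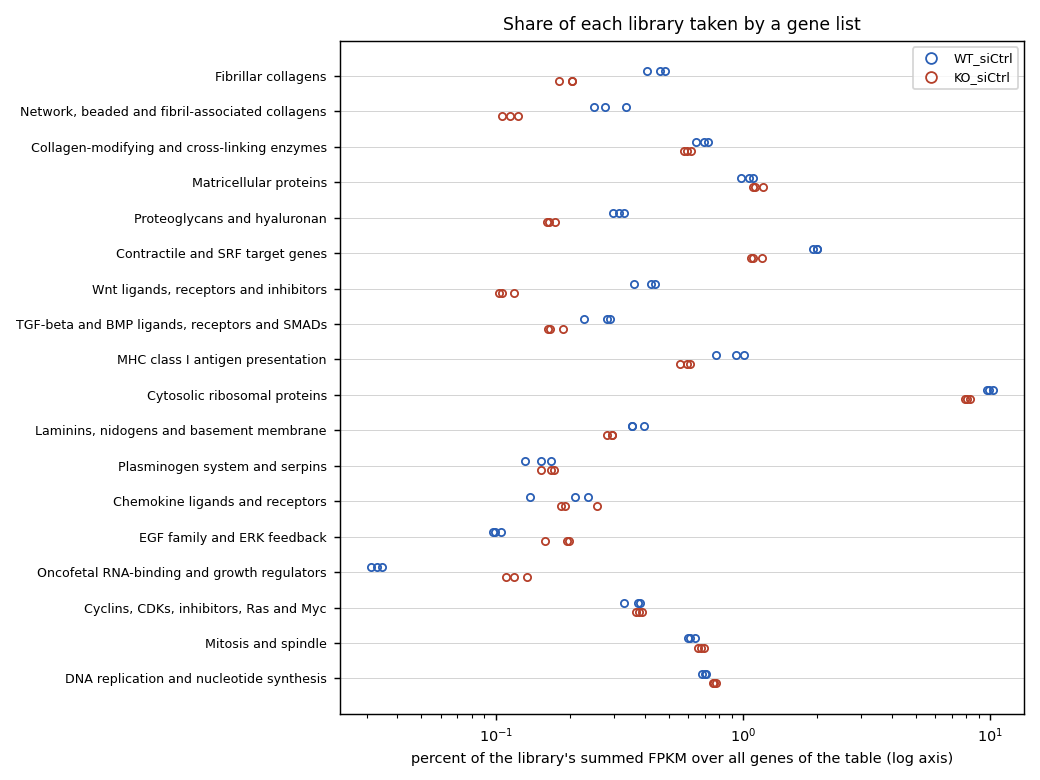
Percent of a library's summed FPKM taken by each gene list (x axis, log scale) in the 3 Dicer-intact (blue) and 3 Dicer-null (red) libraries. Contractile, collagen, Wnt and ribosomal protein lists take smaller shares in every Dicer-null library, and the EGF and oncofetal lists larger ones. In the Dicer-intact libraries Sfrp2 alone had 1330 to 1720 FPKM, while the whole Wnt list summed to 2100 to 2600.

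The labelled cell type was checked against its surface markers. Of 25 mesenchymal stem cell markers 20 passed the filter; 7 were higher and 9 lower. Anpep, CD13 (2.23 ± 0.15), and Ly6a, SCA-1 (1.41 ± 0.126), rose, Cd200 (-2.22 ± 0.183) and Alcam, CD166 (-1.29 ± 0.166), fell, and Pdgfrb was not called (-0.08 ± 0.102). The largest fall in the list was -3.33, the value given above for Mcam, CD146. Not every defining marker is named here. Thy1 (CD90), often used to define these cells, was listed at 0 in all 6 libraries. Osteoblast and cartilage genes were lower in 14 of 21 cases, 13 by at least 1 log2 unit, and higher in 6, with a median of -1.96. The median depends on the filter: it was -0.31 with no filter and -3.43 at a mean FPKM of at least 5. The summed FPKM of the list, which holds the abundant Spp1, was higher without Dicer (4090 to 4560 against 2730 to 3910). Alpl, the alkaline phosphatase of mineralising cells, had FPKM of 336, 668 and 623 in the Dicer-intact and 26.3, 48.7 and 22.5 in the Dicer-null libraries (-4.03 ± 0.436, adjusted p 1.79e-05). The parathyroid hormone receptor Pth1r (-4.17 ± 0.255), bone sialoprotein Ibsp (-4.13 ± 0.263) and Smpd3, needed for mineral growth (-3.46 ± 0.177), fell by like amounts, and the master regulator Runx2 by less (-0.83 ± 0.0976). Adipocyte genes were lower in 11 of 23 cases and higher in 5, with Lpl (-2.3 ± 0.358), Plin4 (-2.85 ± 0.251), Cebpa (-2.59 ± 0.359) and Pparg (-0.9 ± 0.137) lower and Plin2 (0.47 ± 0.0925) and Klf5 (1.67 ± 0.15) higher. In these bulk libraries fewer cells that express a gene and less RNA of it per cell cannot be told apart.

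Markers of cell types that the cultures could hold were few. Of 33 blood markers 5 passed the filter and 2 of them, Cd14 and Ly6c1, were higher, the summed FPKM being 32.6 to 41.1 in the Dicer-intact and 54.6 to 59.4 in the Dicer-null libraries over the whole list, while the defining genes Ptprc, Itgam and Cd3e had group means near 0. Of 24 epithelial markers 5 passed, 3 higher and 2 lower (summed FPKM 7.91 to 11.6 against 18.8 to 26.4), with Epcam, Cdh1, Krt5 and Krt14 near 0. Of 24 endothelial and mural markers 6 passed, none higher and 3 lower (176 to 190 against 117 to 127), with Pecam1, Cdh5, Kdr and Vwf near 0. Summed muscle markers (100 to 115 against 104 to 131), neural markers (6.63 to 6.87 against 5.24 to 9.15) and pluripotency markers (12.7 to 19 against 10.9 to 16.8) overlapped between the groups, and Myod1, Myog and Pax7 were listed at 0.

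The largest single changes included genes of none of these pathways. Msln (mesothelin), a surface protein of mesothelium and of several carcinomas, was at 0, 0.158 and 0.114 in the Dicer-intact and 20.4, 13.3 and 28 in the Dicer-null libraries (4.25 ± 0.298, adjusted p 6.34e-07). Kcnn4, a calcium-gated potassium channel (3.43 ± 0.156), Cxadr, a junction protein that serves as a virus receptor (3.29 ± 0.16), and Pdpn, podoplanin (3.18 ± 0.24), rose, and Islr, a marker of stromal cells (-5.32 ± 0.365), and Gng11, a G protein gamma chain (-4.4 ± 0.181), fell. All of these lay apart in the 2 groups. Some of the largest values belong to short RNA genes such as Snord69, whose FPKM in polyadenylated RNA is unreliable, and they are not described. Among symbol stems with at least 8 tested genes, Col had the lowest median (-1.01, 14 of 22 lower), followed by Tspan, the tetraspanins (-0.82, 10 of 15 lower), and Sema had the highest (0.9).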

How the data were processed

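Polyadenylated RNA of 12 libraries was sequenced, and the authors deposited 1 table of FPKM values with 21881 genes. The tools were Cufflinks 1.0.3 and TopHat 1.2.0 with build mm9, per the submitters' processing notes; their settings and use of strand are not stated there, so overlapping and closely related genes may share reads. FPKM is scaled within a library, so a large change in abundant genes moves all others. Read depth is unknown and limits the precision of low values; only relative depth was read, from the most common ratio of low FPKM between libraries.

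The genes tested (FPKM of 1 or more in 3 or more libraries) were analysed as log2(FPKM + 1), with a pseudocount of 1, which understates changes of low genes. limma 3.58.1 (R 4.3.3) fitted 1 coefficient per group over all 12 libraries (8 residual degrees of freedom, moderated two-sided test with a variance trend), with Benjamini-Hochberg adjustment over 11801 genes; calls were at an adjusted p under 0.05. The steps were run on simulated independent values with 200 changed genes and no effect of library number. These data differ on both points, so that run cannot give the share of false calls here. Groups came from the sample titles. Libraries that share a number had like deviations from the group means (correlations across genes 0.281, 0.132 and 0.28, against -0.232 to -0.0526 between numbers). Number was therefore used as a pairing in an alternative, the replicate block, on the data alone since no label states it. The reported fit leaves it out, so standard errors and calls are those of an unpaired fit unless the block is named.

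The gene lists and members were chosen with earlier results of these data known. Named genes were Dicer1; the members marked as defining a list that passed the filter; the up to 3 largest rises and 3 largest falls called in a list; the 20 largest rises and 20 largest falls overall; and the 3 called genes with the largest rise in the symbol families named. Values were printed where a sentence turns on them. Lists were described by counts and medians, with no test. MicroRNA seeds were matched in GENCODE M21 UTRs for 27 microRNA families, and 7 further families without a sequence in the RefSeq table were not searched. Alternatives were a replicate block, other scalings, pseudocounts, filters and variance models, the 6 libraries alone, and leaving out libraries. Python 3.11.15, pandas 2.3.3, SciPy 1.17.1 and matplotlib 3.10.9 were used.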

Additional observations from a re-analysis of the deposited data

How the results depend on the processing

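Across 18 other settings, 5452 to 7684 genes were called, against 6413 as reported. The smallest count left out all 4 libraries numbered 0, a setting chosen after seeing the data (5452, 2752 higher and 2700 lower). With the replicate block, which uses the pairing of libraries by number, 7684 were called (4165 higher, 3519 lower), and 6411 of the reported calls were among them. Leaving out single libraries gave 5713 to 6372 called genes, and the 6 libraries alone 5513. The share of calls that were higher, 53.6% as reported, was 46.4% with upper quartile scaling, which moved the median of all genes to -0.03, and 57.0% at a mean FPKM of at least 5. That filter, which tests fewer genes with low values, gave 420 genes lower by at least 1 log2 unit against 819. Of 639 named genes called, 558 kept their call in every setting; the direction reversed once, for Serpinh1, a collagen chaperone, at 0.01 under quantile scaling (adjusted p 0.916). Of the 62 lists, 9 changed their majority under a scaling and 6 the sign of their median. With no filter, which adds genes at or near 0 FPKM to the lists, medians moved toward 0: to -0.64 for fibrillar collagens (reported -1.17), -0.05 for network collagens (-1.06), -0.01 for homeobox genes (-0.52), -0.18 for MHC class I (-0.64), -0.18 for proteoglycans (-0.48), -0.24 for matrix proteases (-0.45), -0.25 for TGF-beta and BMP genes (-0.42), -0.03 for Wnt genes (-0.32), 0.37 for EGF and ERK feedback genes (0.65), 0.08 for microRNA processing (0.19), 0 for laminins (0.35), 0.06 for chemokines (0.8) and -0.31 for osteoblast genes (-1.96). At a mean FPKM of at least 5 they were -0.64 for fibrillar collagens, -0.22 for homeobox genes, 0.2 for laminins and -3.43 for osteoblast genes, the last also at -3.24 with a pseudocount of 0.1. Ribosomal protein genes had a median of -0.09 under quantile scaling (reported -0.22), and microRNA processing genes 0.12 under upper quartile scaling. Contractile genes stayed within -0.64 to -0.45. The let-7 difference of medians was 0.12 to 0.16 and that of miR-15/16 0.08 to 0.19. Of the genes given values in the report, the replicate block changed the call of Gapdh, Fos and Sfrp1 and of no other. Among neural markers no member had a mean FPKM of at least 5, so that setting gave no median there. Unknown read depth limits what can be said of genes with low FPKM.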

Other observations

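Imprinted genes, many of which set fetal growth, were at 7 higher and 6 lower of 24 tested, a majority that changes with the scaling of the libraries. Phlda2, which restrains placental growth (2.37 ± 0.271, log2 fold change ± SE), Peg10 (1.3 ± 0.172), the amino acid transporter Slc38a4 (1.73 ± 0.114) and Igf2r, which clears IGF2 (0.98 ± 0.155), rose, and Grb10, a brake on insulin and IGF receptors, fell (-2.24 ± 0.182). Enzymes of N-glycan branching and sulphation were higher in 22 of 55 cases and lower in 16: the sulphotransferases Chst1 (2.16 ± 0.182) and Chst15 (1.76 ± 0.116) and the mucin-type enzyme Galnt7 (1.6 ± 0.142) rose, and St6gal1, which caps N-glycans with sialic acid, fell (-3.08 ± 0.108). In arginine and polyamine metabolism, at 11 higher and 10 lower of 28, a majority that changes with the scaling, Ass1, the argininosuccinate synthase (1.85 ± 0.185), and Odc1, which makes putrescine (1.25 ± 0.218), rose. Intermediate filament, tubulin and neuronal cytoskeleton genes were lower in 10 of 27 cases and higher in 2. Cholesterol and fatty acid synthesis genes were at 7 higher and 11 lower of 41. Nuclear receptors were at 6 higher and 7 lower of 27, with the retinoic acid receptor Rarb higher (1.29 ± 0.146) and Rora lower (-1.31 ± 0.172).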
